A study of Mus musculus with 6 samples.

Results

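Nrf2 (gene symbol Nfe2l2), its inhibitor Keap1 and 8 genes that Nrf2 is known to activate were followed in murine bone marrow-derived macrophages (BMMs) cultured with or without cartilage fragments. The 10 genes were chosen by symbol, as Nfe2l2, Keap1, Hmox1, Nqo1, Gclc, Gclm, Srxn1, Txnrd1, Slc7a11 and Gsr, out of 24394 gene symbols in the transcript tables. Marrow cells came from C57BL/6 mice at postnatal day 28 and were grown with 50 ng/ml macrophage colony-stimulating factor (M-CSF) for 7 days. In 3 control cultures the BMMs received nothing further, and in 3 stimulated cultures cartilage fragments were added at 5 fragments per macrophage for 24 hours. The comparison asks how BMMs respond to debris of the kind shed in an osteoarthritic joint. Cartilage and marrow came from the same mice, and nothing in the labels ties a control culture to a stimulated one, so p-values measure only the spread between these cultures.

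Nrf2 is the transcription factor that switches on genes against oxidative and electrophilic stress. In resting cells Keap1 holds Nrf2 in the cytoplasm and passes it to a ubiquitin ligase for degradation, and modification of Keap1 cysteines lets Nrf2 accumulate, enter the nucleus and bind antioxidant response elements together with small Maf proteins. Its control is therefore largely at the level of protein, which RNA sequencing does not read, while the RNA of its targets is the usual readout of its activity. In macrophages the pathway is known for heme breakdown, glutathione supply and restraint of inflammatory genes.

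The core of the antioxidant response element, TGACNNNGC, was looked for on both strands of RefSeq promoter windows (GRCm38.p6), which run from 250 bases before to 50 bases after an annotated start. Windows were given for 7 of the 10 genes, and 4 of these 7 genes (57.1%) held the core, beside 3781 of 27025 genes (14.0%) with a window. On the strand of the gene alone it was found in 1 of the 7 genes, beside 7.29% of all genes. The 4 matches are shown because they place the sequence that Nrf2 is known to bind beside the genes measured here. Capitals mark the core, or its reverse complement where it lies on the other strand, and each sequence is written on the strand of its gene.
Nfe2l2: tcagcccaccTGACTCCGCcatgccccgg
Gclm: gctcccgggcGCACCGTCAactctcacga
Txnrd1: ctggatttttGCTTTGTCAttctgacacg
Srxn1: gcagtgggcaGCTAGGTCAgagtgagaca
The Nfe2l2 stretch is chr2:75704885-75704913 (minus strand), with the core beginning 240 bases upstream of the start. The Gclm stretch is chr3:122245413-122245441 (plus strand), with the core 134 bases upstream. The Txnrd1 stretch is chr10:82859104-82859132 (plus strand), with the core 92 bases upstream of the start that carried all of its named expression. The Srxn1 stretch is chr2:152105542-152105570 (plus strand), with the core 28 bases downstream of the start. None of the 4 cores overlapped TGACTCA, the site of the AP-1 factors. Such a match is a description of the letters and not of binding, and a window says nothing of enhancers further away.

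Levels are given as FPKM, sequenced fragments scaled to transcript length and library size, which allows genes to be set beside each other per length. The deposited values correspond to an estimated 699237 to 776371 sequenced fragments per library, from the ratio of coverage to FPKM. The methods of the study give a far larger number of mapped reads, and the difference was not resolved, so every count of fragments below is an estimate from the deposited tables. The tables list 34535 reference transcripts each. Beside these they list 1453 to 1654 transcripts per library that were assembled from that library and carry no gene symbol, with 15.8% to 19.96% of its FPKM. The 9 macrophage markers summed to 33410 to 42840 FPKM in control and 34170 to 44470 in stimulated libraries, from Fcgr1 at 5.13 to 12.7 to Lyz2 at 26780 to 37370. Of these 9, Adgre1 and Cd14 were higher in stimulated libraries past the threshold used below (log2 fold change 0.59 and 0.63 in FPKM, limma adjusted p = 0.00965 and 0.0388), and Itgam too in scaled fragments (0.26, limma adjusted p = 0.000144). Those of chondrocytes summed to 1.18 to 4.22 FPKM with 5 of 10 at 0 throughout, and all 5 erythroid and all 6 lymphocyte markers were at 0. Neutrophil markers summed to 808 to 948 FPKM in control and 755 to 1098 in stimulated libraries, and dendritic cell markers to at most 3.00. Fibroblast markers summed to 202 to 218 FPKM in control and 126 to 147 in stimulated libraries, and 3 of the 5 tested (Col1a1, Col1a2 and Postn) were lower past the threshold used below in scaled fragments. Fewer cells of a type and less RNA per cell cannot be told apart in bulk cultures, and the part of these marker shifts in the values below was not tested.

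Unnamed transcripts held part of the expression of a locus in single libraries of the Nrf2 set. They were present in 10 of 60 pairs of gene and library, touched 7 of the 10 genes, and held 11.0% to 73.5% of the expression of the locus there. The value by symbol was not always low there, as Gclm in control 1 stood at 212 FPKM by symbol, beside 209 and 242 in control 2 and 3. Srxn1 showed a low value by symbol most clearly. Under its symbol it stood at 50.1 FPKM in control 1 and 54.1 in stimulated 2, with an unnamed transcript on the same gene at 128 and 150 FPKM. In control 1 that transcript began 369 bases before the annotated gene, and in stimulated 2 it covered the second of the 2 exons. Nfe2l2 in control 2 had 56.6 FPKM by symbol and 88.7 in an unnamed transcript over 4 of its 5 exons, and Gsr in control 3 had 21.9 and 56.3, over 10 of its 13 exons. For that reason the level of a gene is given below for the whole locus, meaning its named transcripts plus unnamed transcripts that share a locus with no other gene, and the sum by symbol is given where it differs.

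**Figure D1:**
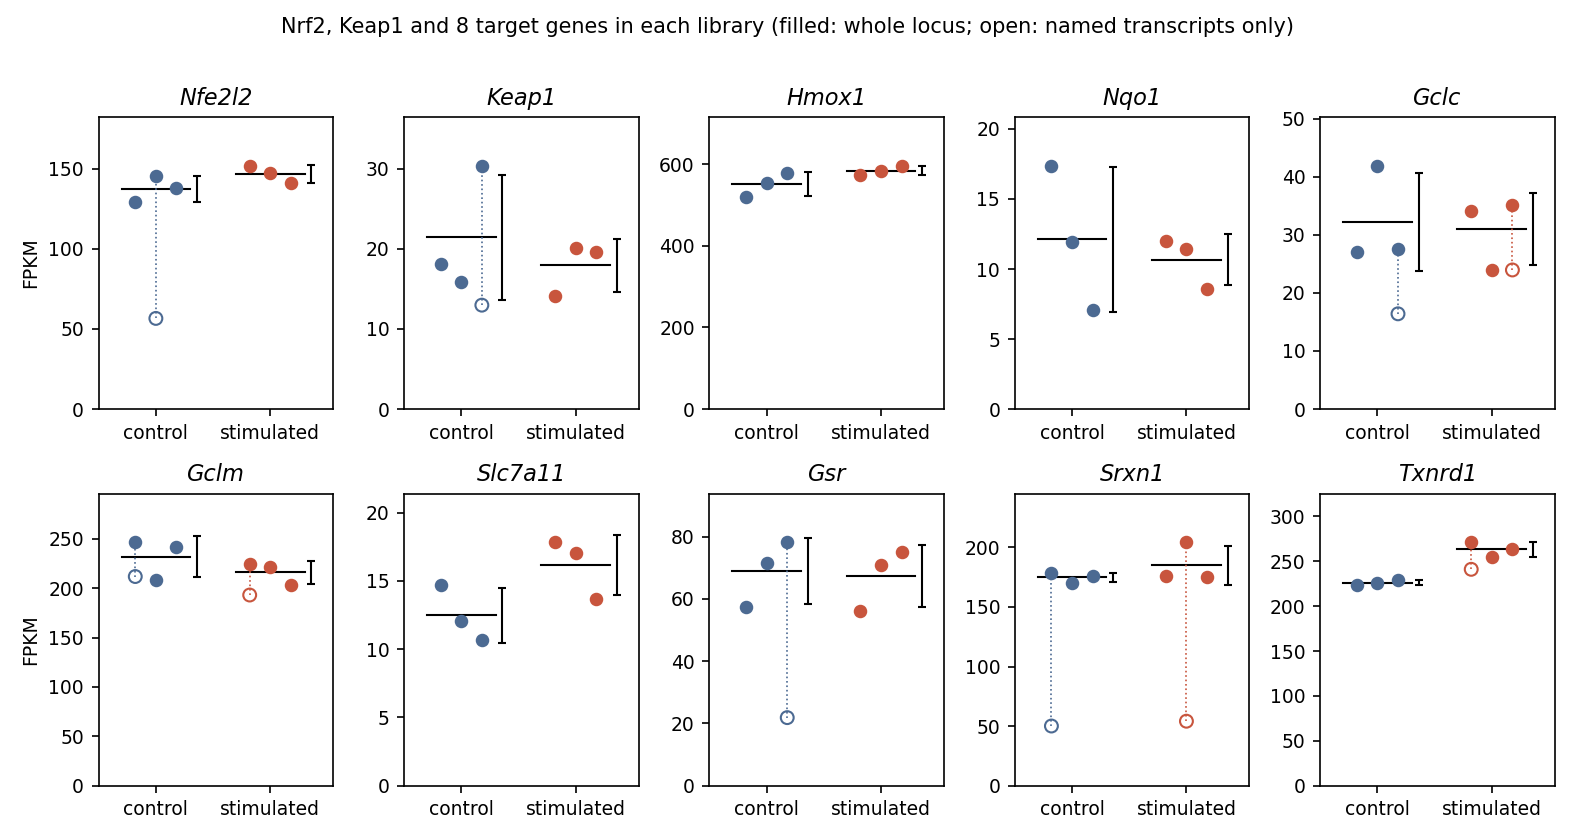
Expression of the 10 genes in FPKM (vertical axes from 0) in the 3 control (blue) and 3 stimulated (red) libraries, replicates 1 to 3 from left to right. Filled points are whole loci, open points joined by a dotted line are the named transcripts alone where an unnamed one was present, horizontal lines are group means and bars ±1 SD; the groups of Txnrd1 do not overlap, and the open point of Srxn1 in control 1 lies at 50.1 under a filled one at 178.

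The genes covered a wide range of levels in resting BMMs. Hmox1 led with a control mean of 551 FPKM (98.7th percentile of the genes tested, over all 6 libraries), followed by Gclm (232), Txnrd1 (226), Srxn1 (175), Nfe2l2 (137), Gsr (69.0), Gclc (32.1), Keap1 (21.4), Slc7a11 (12.5) and Nqo1 (12.1). The control libraries of 3 neighbouring pairs in this order overlapped, namely Gclm with Txnrd1, Gclc with Keap1 and Slc7a11 with Nqo1. The other neighbours were apart in all 3 controls. The regulator itself lay in the middle of the set, and Nqo1, a quinone reductase often read as a marker of Nrf2 activity, had the lowest mean of the 10.

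None of the 10 genes passed the test between stimulated and control BMMs in FPKM. The test was limma over the 10393 genes whose mean reached 1 FPKM, adjusted by Benjamini-Hochberg over all of them, and an adjusted p under 0.05 counted as a pass. Among all genes tested 38 passed (0.366%), and 955 had an unadjusted p under 0.05. The adjusted p of the 10 genes ran from 0.329 to 0.978 in limma. As whole loci, 5 of the 10 had a positive and 5 a negative log2 fold change, and the median was 0.02, beside 0.00 over all genes. By symbol 8 of the 10 were positive, and the median was 0.12, beside 0.02 over all genes. In the whole-locus fit the 95% interval of every one of the 10 lay within a 2-fold change either way. The widest reached from −0.87 on the log2 scale at its lower end, for Nqo1. A second scale, called scaled fragments, was added. Sequenced fragments per locus were estimated from coverage and transcript length and divided by the library total. This scale too depends on the transcript models. On it 258 genes passed (2.48%), and 1 of the 10, Txnrd1, was among them.

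**Figure D2:**
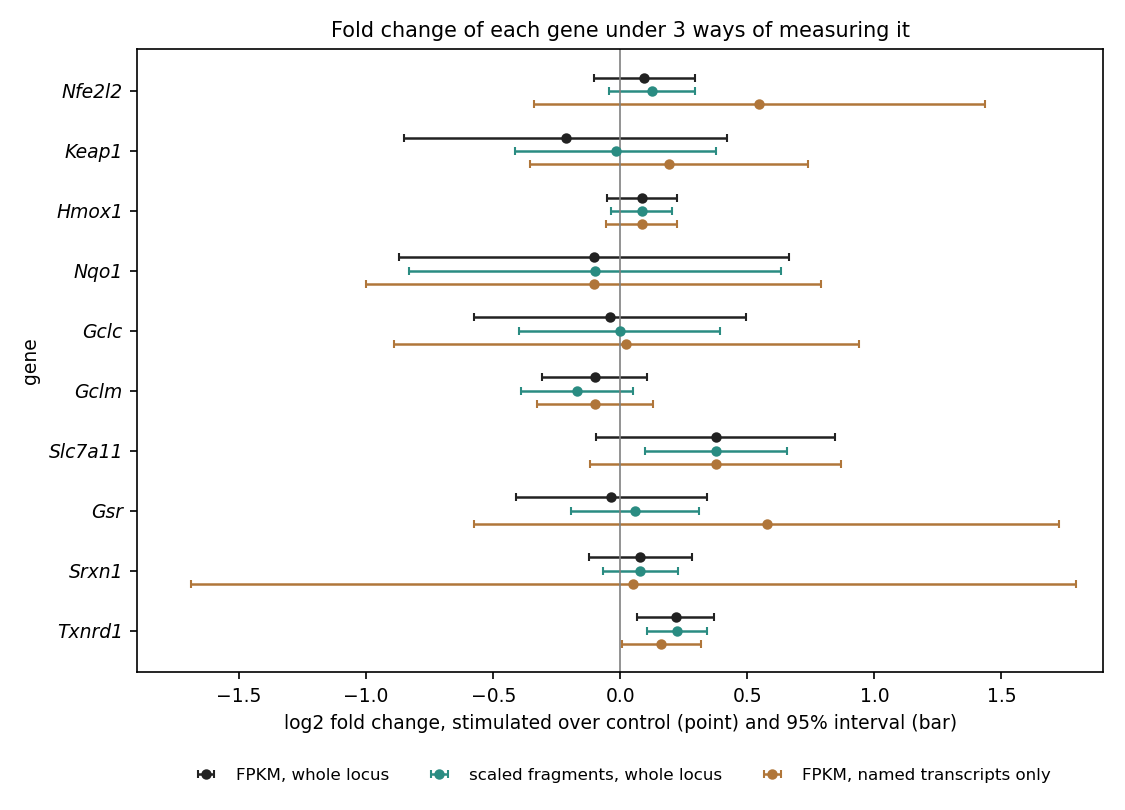
Log2 fold change of stimulated over control BMMs (horizontal axis) for the 10 genes, with 95% intervals from limma, measured as FPKM of the whole locus (black), scaled fragments (green) and FPKM of named transcripts alone (brown). The brown intervals of Srxn1, Gsr and Nfe2l2 are those that reach beyond a 2-fold change (a log2 value of 1), and the interval of Txnrd1 lies above 0 in all 3.

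The regulator and its inhibitor came first. Nfe2l2 (chr2:75675519-75704641, minus strand, 5 exons, coordinates in mm10) stood at 129, 145 and 138 FPKM in control 1 to 3 and at 152, 147 and 141 in stimulated 1 to 3. The groups overlapped, since control 2 lay above stimulated 3. The mean was 137 ± 8.04 (SD, n = 3) in control and 147 ± 5.35 in stimulated BMMs, a log2 fold change of 0.09 (SE 0.086, 95% interval −0.10 to 0.29, limma adjusted p = 0.784). In scaled fragments the groups of Nfe2l2 did not overlap, with a log2 fold change of 0.12 that did not pass (limma adjusted p = 0.632). By symbol alone the log2 fold change was 0.55, with 1 control at 56.6 FPKM and an interval from −0.34 to 1.43, and the groups did not overlap. The share of all genes without overlap was counted for whole-locus FPKM alone (9.04% above and 6.89% below). How unusual a lack of overlap is in scaled fragments or by symbol was therefore not tested.

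Keap1 (chr9:21229730-21239332, minus strand), the sensor that binds Nrf2, stood at 18.1, 15.9 and 30.4 FPKM in control and at 14.1, 20.1 and 19.6 in stimulated libraries. Control 3 stood apart, and 17.4 of its 30.4 FPKM lay in an unnamed transcript over the last 2 exons. The log2 fold change was −0.22 (SE 0.276, 95% interval −0.85 to 0.42, limma adjusted p = 0.840) in FPKM and −0.02 in scaled fragments, on 31.3 to 45.5 sequenced fragments per library. By symbol the sign turned, to 0.19, and it turned also without control 3, to 0.064. One of the 4 listed Keap1 transcripts, NM_001110307, carried 80.8% to 100% of the locus in the 5 libraries without an unnamed transcript. Nfe2l2 exceeded Keap1 by 4.54 to 9.15 times in control and 7.19 to 10.8 times in stimulated libraries, and these ranges overlapped.

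Hmox1 (chr8:75093618-75100593, plus strand, 5 exons) encodes heme oxygenase 1, which opens the heme ring and releases iron, carbon monoxide and biliverdin. It stood at 520, 555 and 580 FPKM in control and at 573, 584 and 596 in stimulated libraries. Control 3 lay above stimulated 1, so the groups overlapped, although 2 of 3 controls were below every stimulated library. The control mean was 551 ± 30.2 and the stimulated mean 584 ± 11.7 FPKM (SD, n = 3), and the log2 fold change was 0.09 (SE 0.059, 95% interval −0.05 to 0.22, limma adjusted p = 0.715). With 551 to 590 sequenced fragments per library it was among the most precise of the set, and its upper bound corresponds to a 1.17-fold rise.

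Nqo1 (chr8:107388225-107403205, minus strand, 6 exons) encodes NAD(P)H quinone dehydrogenase 1, which reduces quinones by a pair of electrons. It stood at 17.4, 11.9 and 7.06 FPKM in control and at 12.0, 11.5 and 8.59 in stimulated libraries. The stimulated values all lay inside the control range. The log2 fold change was −0.10 with a wide error (SE 0.333, 95% interval −0.87 to 0.66, limma adjusted p = 0.951), on 7.03 to 18.1 sequenced fragments per library. Its sign depended on single libraries, with 0.20 without control 1 and 0.04 without stimulated 3, so no direction can be given.

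The glutathione arm holds the ligase that makes glutathione, the transporter that feeds it and the reductase that recycles it. Gclc (chr9:77754535-77794489, plus strand, 16 exons), the catalytic subunit of glutamate-cysteine ligase, stood at 27.0, 41.9 and 27.5 FPKM in control and 34.1, 23.9 and 35.1 in stimulated libraries. The groups overlapped, although stimulated 2 lay below every control and control 2 above every stimulated library, with a log2 fold change of −0.04 (SE 0.232, 95% interval −0.58 to 0.50, limma adjusted p = 0.978). The sign was positive by symbol (0.024), without control 2 (0.17) and without stimulated 2 (0.14). Gclm (chr3:122245557-122267215, plus strand, 7 exons), the modifier subunit of the same enzyme, stood at 246, 209 and 242 FPKM in control and 224, 221 and 203 in stimulated libraries. Control 2 lay below stimulated 1 and 2, and the log2 fold change was −0.10 (SE 0.090, 95% interval −0.31 to 0.11, limma adjusted p = 0.780). In scaled fragments it was −0.17 (SE 0.104, limma adjusted p = 0.598). Control 1 held 427 fragments there, 121 of them in a long unnamed transcript, beside 294 and 334 in control 2 and 3. Gclm exceeded Gclc per length in every library, by 4.98 to 9.11 times in control and 5.78 to 9.27 times in stimulated BMMs.

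Slc7a11 (chr3:50364936-50443613, minus strand, 12 exons) encodes xCT, the subunit of the cystine and glutamate exchanger that brings cystine in for glutathione. As a whole locus it had the largest fold change of the 10, yet did not pass. By symbol the log2 fold changes of Gsr (0.58) and Nfe2l2 (0.55) were larger. It stood at 14.7, 12.1 and 10.7 FPKM in control and 17.8, 17.0 and 13.7 in stimulated libraries, and only control 1 and stimulated 3 overlapped. The control mean was 12.5 ± 2.04 and the stimulated mean 16.2 ± 2.20 FPKM (SD, n = 3), and the log2 fold change was 0.37 (SE 0.204, 95% interval −0.10 to 0.85, limma adjusted p = 0.630). In scaled fragments the log2 fold change was 0.38 (SE 0.138, 95% interval 0.10 to 0.66), with 71.6 to 121 sequenced fragments per library. Its unadjusted limma p there was 0.0101, which did not pass after adjustment (limma adjusted p = 0.201). Its partner Slc3a2 was far more abundant per length, so that the ratio of Slc7a11 to Slc3a2 was 0.0857 to 0.184 in control and 0.130 to 0.180 in stimulated libraries.

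Gsr (chr8:33653238-33698162, plus strand, 13 exons) encodes glutathione reductase, which returns oxidized glutathione to its reduced form with NADPH. It stood at 57.4, 71.5 and 78.1 FPKM in control and 56.0, 70.9 and 75.0 in stimulated libraries, nearly the same 3 values in each group. The log2 fold change was −0.04 (SE 0.163, 95% interval −0.41 to 0.34, limma adjusted p = 0.970). The sign was positive in scaled fragments (0.058), without control 3 (0.060) and without stimulated 1 (0.091). By symbol alone it was 0.58 with an interval from −0.58 to 1.73, since control 3 then counted 21.9 FPKM.

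The thioredoxin arm holds the remaining pair. Srxn1 (chr2:152105524-152111376, plus strand, 2 exons) encodes sulfiredoxin, which repairs overoxidized peroxiredoxins. As a whole locus it stood at 178, 170 and 176 FPKM in control and 176, 204 and 175 in stimulated libraries. The 5 libraries other than stimulated 2 lay between 170 and 178, and the log2 fold change was 0.08 (SE 0.088, 95% interval −0.12 to 0.28, limma adjusted p = 0.818). By symbol the control mean was 132 ± 71.2 and the stimulated mean 135 ± 70.2 FPKM (SD, n = 3), and the 95% interval then ran from −1.69 to 1.79. With all 6 libraries and moderation as above, the interval thus reached beyond a 2-fold change for Srxn1, Gsr and Nfe2l2 by symbol. It did so for none of the 10 as whole loci.

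Txnrd1 (chr10:82833951-82897724, plus strand) encodes the cytosolic thioredoxin reductase, a selenoprotein that reduces thioredoxin with NADPH. It was the only gene of the 10 whose groups did not overlap in FPKM of the whole locus, at 224, 226 and 229 in control and 271, 255 and 264 in stimulated libraries. Every stimulated library lay above every control for 9.04% of all genes tested and every one below for 6.89%, against 1 and 0 of the 10. The mean was 226 ± 2.81 in control and 263 ± 8.16 in stimulated BMMs (SD, n = 3), a log2 fold change of 0.22 (SE 0.066, 95% interval 0.06 to 0.37), with an unadjusted limma p of 0.0112 that did not pass after adjustment (limma adjusted p = 0.329). In scaled fragments the log2 fold change was 0.22 (SE 0.057) and passed (limma adjusted p = 0.0236). This call held without control 3 (limma adjusted p = 0.0430) and was lost without any other single library, with limma adjusted p of 0.0591 to 0.173, while the log2 fold change stayed at 0.20 to 0.25.

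An unnamed transcript gave 29.9 of the 271 FPKM of Txnrd1 in stimulated 1. By symbol that library stood at 241 FPKM, still above all controls, and the log2 fold change was 0.16 (limma adjusted p = 0.739). The named expression of Txnrd1 was divided between NM_015762 and NM_001042513, which share the start at chr10:82859206, and the other 2 listed transcripts were at 0 in all 6 libraries. NM_015762 carried 38.2% to 66.7% of the locus in control and 38.5% to 48.0% in stimulated libraries, and these ranges overlapped. The start of these named transcripts is the one whose window holds the core shown above. The unnamed transcript in stimulated 1 began further in, at chr10:82859765, and starts of transcription were not mapped. A second gene, Eid3, lies within the span of Txnrd1 at 1.18 to 3.68 FPKM, small beside it.

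The spread between libraries was set beside the number of sequenced fragments. Over the whole locus the SD was 1.24% to 42.6% of the mean in control and 2.01% to 20.1% in stimulated BMMs, widest in the controls of Nqo1, which had 11.4 fragments per library on average, and narrowest in those of Txnrd1, which had 572. Counting error alone would give 29.6% and 4.18% for these. By symbol the controls of Srxn1, Gsr, Gclc and Nfe2l2 spread by 53.8%, 50.9%, 45.0% and 41.4% of their mean, against 2.33%, 15.3%, 26.3% and 5.85% as whole loci. Adding the unnamed transcript widened Keap1 instead, from 16.4% to 36.4%. There the unnamed transcript held 14.9 sequenced fragments, and the 43.3 fragments of Keap1 in control 3 lay within the range of the other libraries.

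**Figure D3:**
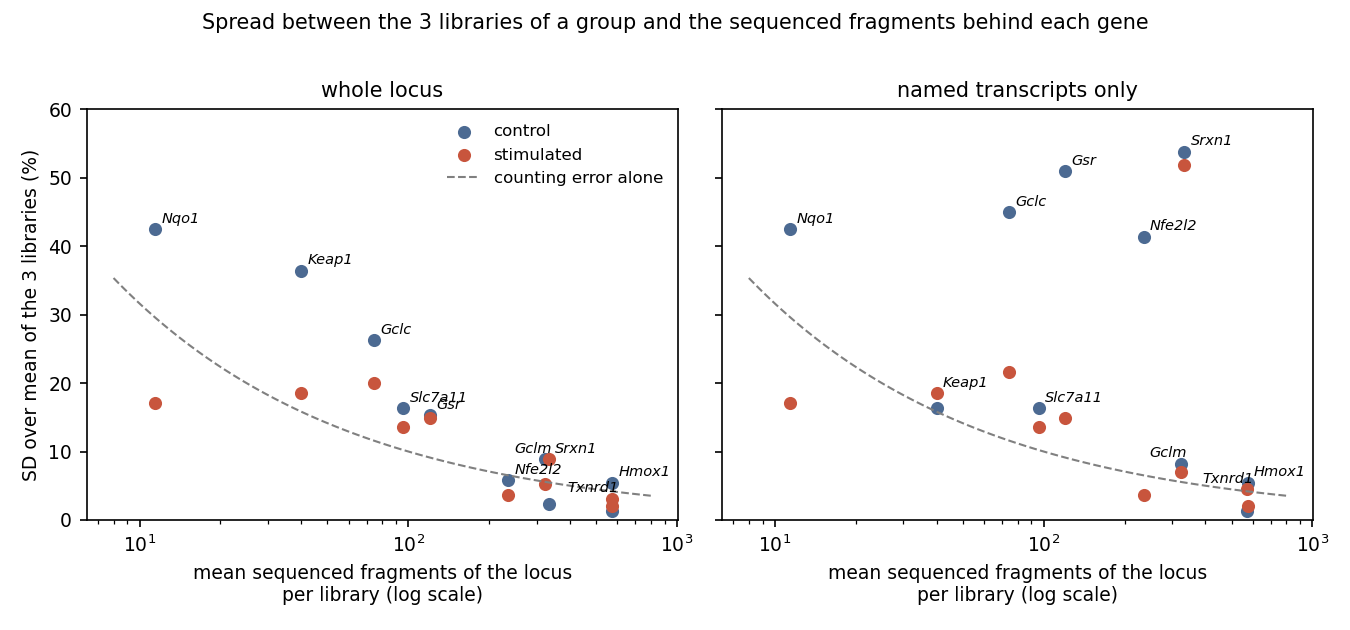
SD as a percent of the mean over the 3 libraries of a group (vertical axis, from 0) against the mean sequenced fragments of the locus per library (horizontal log axis), for whole loci (left) and named transcripts alone (right). Blue is control, red is stimulated and the dashed line is the spread that counting error alone would give; the Srxn1 controls are at 2.33% on the left and 53.8% on the right.

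The wider pathway was described with 77 further genes in 7 lists, of which 65 were tested. In FPKM 1 of these 65 passed, Prdx1, and in scaled fragments 9 passed, 7 higher and 2 lower, beside 0.366% and 2.48% of all genes. Their median log2 fold change was 0.01 in FPKM and 0.04 in scaled fragments. With each library left out in turn, Prdx1 and Fth1 passed every time in scaled fragments (for Fth1, see also the fit by transcript status below). Idh1 was lost without stimulated 2 (limma adjusted p = 0.0596), Txn1 without control 1, stimulated 2 or stimulated 3 (up to 0.153), Sqstm1 without control 1, control 2, stimulated 1 or stimulated 2 (up to 0.191) and Cat without control 2, control 3, stimulated 1 or stimulated 2 (up to 0.229). Prdx5 passed only without control 3, Gpx4 only without stimulated 3 and Gsta3 in none of the 6 (limma adjusted p up to 0.269, 0.221 and 0.230). Prdx1, Prdx5, Txn1 and Idh1 are also among the genes that the study itself selected on these libraries, so their direction is not independent evidence.

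The thioredoxin and peroxiredoxin genes had the highest median of the 7 lists, 0.27 on the log2 scale of FPKM, with 3 of 7 higher past the threshold in scaled fragments and 1 of 7 in FPKM. This list was chosen with earlier results of these data known. It holds Prdx1, Prdx5 and Txn1, which the study selected as higher, so its rank among the lists is not evidence about the arm. Prdx1, a peroxiredoxin that removes hydrogen peroxide, rose by 0.27 on the log2 scale of FPKM (SE 0.032, limma adjusted p = 0.0187), with a control mean of 2779 ± 60.1 and a stimulated mean of 3343 ± 7.07 (SD, n = 3). Prdx1 no longer passed in FPKM without control 1, control 2 or any stimulated library, while in scaled fragments its limma adjusted p was 4.9e-07. Txn1, the thioredoxin that Txnrd1 reduces, rose in scaled fragments by 0.43 on the log2 scale (SE 0.101, limma adjusted p = 0.0106), with 215 to 278 FPKM in control and 325 to 360 in stimulated libraries. Prdx5 rose in scaled fragments by 0.39 (SE 0.098, limma adjusted p = 0.0272). Prdx6 had a log2 fold change of 0.30 and mitochondrial Txnrd2 one of −0.49 in scaled fragments, and neither passed (limma adjusted p = 0.182 and 0.701). Txnip, which binds and blocks thioredoxin, was at 118 to 122 FPKM in control and 106 to 117 in stimulated libraries and did not pass (limma adjusted p = 0.716 in FPKM).

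Among the genes of heme and iron, 1 of 8 passed in scaled fragments. Fth1, the ferritin heavy chain that stores the iron set free by Hmox1, rose there by 0.15 on the log2 scale (SE 0.022, limma adjusted p = 0.000132). Its FPKM overlapped between groups (20130 to 25900 and 22660 to 36170). Each deposited transcript value also carries a status, OK or not. With values marked OK only, Fth1 had a log2 fold change of −0.18 in FPKM (SE 8.2), beside 0.27 (SE 0.226) with all values. Its direction was thus not settled in FPKM, and the fit by status was not run in scaled fragments. Ftl1, the light chain, had 0.08 in scaled fragments and did not pass (limma adjusted p = 0.218), but passed without control 3 (0.00751) or without stimulated 1 (0.0277). Slc40a1 went the other way, with −0.24 in scaled fragments, and did not pass (limma adjusted p = 0.808). Without stimulated 3 it passed, at −0.45 (limma adjusted p = 0.0149). Blvrb, a biliverdin reductase, had 0.28 (limma adjusted p = 0.0501). Hmox2, the constitutive heme oxygenase, had −0.37 in FPKM (limma adjusted p = 0.695) and 2.83 by symbol, so it gave no direction.

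Of 14 tested glutathione genes, 2 rose past the threshold in scaled fragments and 0 fell. Gpx4, which reduces lipid peroxides, had a log2 fold change of 0.29 (limma adjusted p = 0.0396) and Gsta3, a glutathione transferase with close paralogs, 0.61 (limma adjusted p = 0.0422). Both turn in sign by symbol, to −0.46 and −0.21. Gpx1, the most abundant glutathione peroxidase of the list, had 0.14 and Mgst1 0.05, and neither passed in scaled fragments (limma adjusted p = 0.557 and 0.883). Gstm3 had −0.33 in FPKM on 15.1 fragments over all 6 libraries.

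Of 11 tested genes that control Nrf2, Sqstm1 alone passed, in scaled fragments. Sqstm1, or p62, binds Keap1 and delivers it to autophagy. It stood at 610, 648 and 680 FPKM in control and 813, 746 and 711 in stimulated libraries with no overlap, a log2 fold change of 0.23 in scaled fragments (SE 0.053, limma adjusted p = 0.0110) and 0.23 in FPKM (limma adjusted p = 0.322). Every stimulated library lay above every control for 1 of these 11 genes in FPKM, beside 9.04% of all genes tested. Nfe2l1, a relative of Nrf2, had 0.24 in FPKM (limma adjusted p = 0.681). Mafg, a small Maf partner, had 0.31 in FPKM and −0.26 in scaled fragments, and so no direction. Crebbp, a coactivator, had −0.37 in FPKM (limma adjusted p = 0.829).

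NADPH, the reductant that both Gsr and Txnrd1 use, is supplied by enzymes of which 1 of 6 passed. Idh1, the cytosolic isocitrate dehydrogenase, fell by 0.35 on the log2 scale of scaled fragments (SE 0.074, limma adjusted p = 0.00323), from 248 to 275 FPKM in control to 195 to 223 in stimulated libraries. Tkt had 0.13, Pgd 0.09, Taldo1 0.03 and G6pdx, the entry enzyme of the pentose phosphate pathway, −0.05 in scaled fragments, and none of these passed. Among 7 tested detoxification genes, Cat, the catalase that destroys hydrogen peroxide in peroxisomes, fell by 0.18 in scaled fragments (SE 0.047, limma adjusted p = 0.0252). Ptgr1 and Akr1b8 had 0.20 and −0.15 and did not pass (limma adjusted p = 0.638 and 0.801).

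Slc7a11 is also a target of Atf4, the factor of the amino acid stress response, and 0 of 12 tested Atf4 genes passed on either scale by limma. Atf4 had a log2 fold change of 0.11 and Atf5 one of −0.33 in FPKM (limma adjusted p = 0.829 and 0.387). Mthfd2 had 0.69 and Chac1 −1.30 in FPKM, on 52.4 and 8.07 sequenced fragments over all 6 libraries. The list's median log2 fold change was −0.05 in FPKM.

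**Figure D4:**
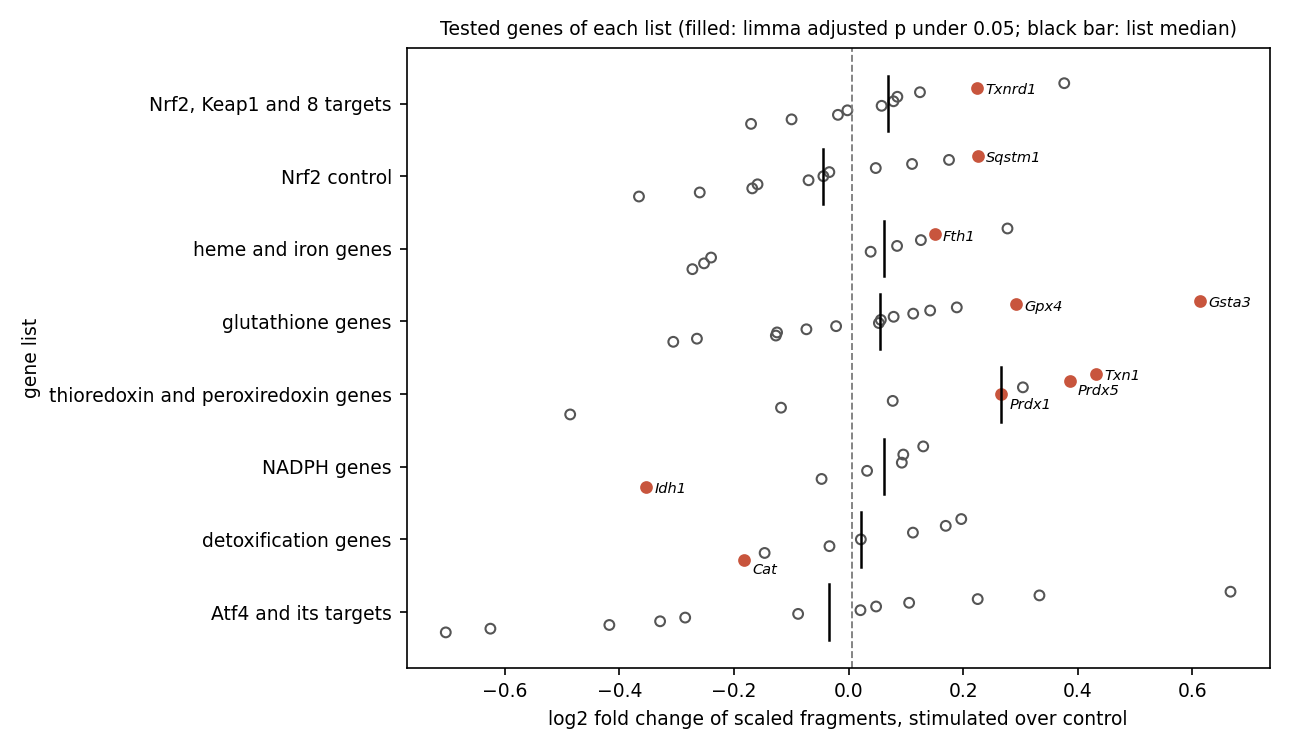
Log2 fold change in scaled fragments (horizontal axis) of each tested gene in the Nrf2 set and the 7 further lists, 1 point a gene. Filled points have a limma adjusted p under 0.05, black bars are list medians and the dashed line is the median of all genes tested; Txnrd1 is the filled point in the Nrf2 set, and Prdx1, Prdx5 and Txn1 are those in the list with the highest median.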

How the data were processed

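RNA of 6 BMM cultures was sequenced as stranded paired-end mRNA libraries. Per the labels and methods, the authors aligned reads to mm10 with TopHat and Bowtie and quantified transcripts with Cufflinks (versions not given in the sources used here), and deposited per library FPKM, with coverage and length of each transcript. Coordinates were made 1-based, and exon counts are those of GENCODE vM21 models. Unnamed assembled transcripts were added to a gene where they shared its locus identifier and no other gene did. This sum was set after both it and the sum by symbol had been fitted, and the sum by symbol is given beside it. Fragments were estimated as coverage times (length − 210) / 100, where the 210 bases, not stated in the sources, were set from the values: 93.4% to 94.3% of low values then came within 0.1 of a whole number, against 18.3% to 20.8% with 0 and 76.6% to 80.8% with 250. Library totals do not use it. Fits used limma 3.58.1 with trend and robust moderation on log2(FPKM + 0.1), two-sided, over the 10393 genes whose mean reached 1 FPKM; fold changes are on this scale and understate changes of low genes. Scaled fragments had 0.5 added. An exact permutation test of 3 against 3 cannot go below p = 0.1 and was not used. Named from each further list were genes past the threshold on either scale, the 2 with the highest mean and the largest rise and fall. Slc3a2, Slc40a1 and the markers named were added later. The genes and lists were chosen with earlier results of these data known. Cuffdiff was also named by the authors. Of their own testing, only the fact that Prdx1, Prdx5, Txn1 and Idh1 are among the genes selected was used.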

Additional observations from a re-analysis of the deposited data

How the results depend on the processing

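The 38 genes past the threshold became 258 in scaled fragments, 18 without trend and robust moderation, 19 with named transcripts alone and 8 to 30 with 1 library left out. None of the 10 Nrf2 genes passed in any of these settings other than scaled fragments, where 1 did. Of the other listed genes, 1 passed in FPKM, 9 in scaled fragments, 0 with totals made equal, 0 without trend and robust moderation and 0 to 1 with 1 library left out. In scaled fragments, leaving out 1 library, an alternative chosen after seeing the data, left 154 to 221 genes, 0 to 1 of the 10 and 2 to 7 of the other listed genes, with Txnrd1 at 0.20 to 0.25 on the log2 scale. Signs turned for Keap1 (0.19 with named transcripts alone; −0.40 to 0.064 with 1 library left out), Gclc (0.024; −0.15 to 0.17), Gsr (0.58, and 0.058 in scaled fragments; −0.16 to 0.091) and Nqo1 (−0.44 to 0.20 with 1 library left out), and the cause was not tested. The core was in 1 of the 7 genes with a promoter window on the forward strand alone. Same-numbered cultures correlated at 0.0034, 0.167 and 0.155 in their deviations from group means. Cultures of different numbers correlated at −0.242 to 0.107, and these values do not settle whether the numbers pair the cultures. With a replicate block 18 genes, 0 of the 10 and 0 of the other listed genes passed. In scaled fragments the block gave 240, 1 and 9, where Gsta3 did not pass (limma adjusted p = 0.0588) and Ftl1 did (0.00124). Some whole-locus intervals in FPKM reached beyond a 2-fold change with 1 library left out. They ran down to −1.13 for Nqo1 and −1.08 for Keap1, and up to 1.02 for Slc7a11. Without trend and robust moderation that of Nqo1 reached −1.004. Other pseudocounts, filters and size factors changed no sign among the 10.

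By the estimated fragments, Nqo1 and Keap1 had the fewest of the 10 genes. That estimate is far below the mapped reads given in the study's methods.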
